A study of Mus musculus with 6 samples.

Results

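The TGF-β ligand, receptor and Smad genes were described in Hepa 1–6, a mouse hepatoma cell line. Members were the rows of the deposited expression table with the gene symbols *Tgfb1*, *Tgfb2*, *Tgfb3*, *Tgfbr1*, *Tgfbr2*, *Smad2*, *Smad3*, *Smad4*, *Smad6* and *Smad7*, and all 10 were found, of 18169 genes in all. Each group, Shh (the Sonic hedgehog protein) or vehicle, has 3 libraries of poly(A) RNA. The labels give no genotype and no transgene, and neither how much Shh was added nor for how long is given in the sources used here. Nothing ties the libraries to separate cultures, so p-values measure only how the libraries spread, which may be technical. The libraries held 20253781 to 20335463 estimated counts each. The comparison asks whether genes of the TGF-β pathway differed in RNA level between Shh-treated and vehicle-treated hepatoma cells.

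TGF-β is secreted in a latent form and, once released, binds a receptor made of type II and type I kinases. The type II receptor phosphorylates the type I receptor, which phosphorylates Smad2 and Smad3, and these join Smad4 and enter the nucleus. Smad7 and Smad6 are induced inhibitors, Smad7 acting mainly on TGF-β receptors and Smad6 mainly on the BMP branch. In liver the pathway restrains hepatocyte growth and drives matrix production by stellate cells. Much of its control lies in release of the ligand and phosphorylation, which RNA levels do not measure.

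In Hepa 1–6 cells 1 ligand gene, both receptor genes and all 5 Smad genes were well measured. Levels were compared between genes by deposited FPKM, which divide by transcript length, and are given as mean ± SD over the 6 libraries. *Tgfb1*, which encodes the TGF-β1 ligand, had the highest level at 68.4 ± 3.34 FPKM (n = 6), above 92.2% of all genes. The type II receptor gene *Tgfbr2* followed at 17.8 ± 0.525 FPKM, and *Tgfb1* stood 3.83 times above it. Next came the signalling Smads, *Smad2* at 13.5 ± 0.455 FPKM, *Smad3* at 12.4 ± 0.541 FPKM and the shared partner *Smad4* at 11.7 ± 0.559 FPKM. The inhibitory Smad gene *Smad7* was at 8.87 ± 0.711 FPKM, the type I receptor gene *Tgfbr1* at 5.87 ± 0.667 FPKM and *Smad6* at 4.42 ± 0.304 FPKM. Each of these 8 genes was above at least 54.7% of all genes in the table by FPKM.

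The other ligand genes were near the limit of detection. *Tgfb2* was at 0.0833 ± 0.0288 FPKM and *Tgfb3* at 0.0400 ± 0.0379 FPKM (n = 6). *Tgfb1* thus made up 99.7% to 99.9% of the summed FPKM of the 3 ligand genes across the libraries. In the order of FPKM levels, the ranges of *Smad2* and *Smad3* over the 6 libraries overlapped, as did those of *Smad3* and *Smad4* and those of *Tgfb2* and *Tgfb3*. Within libraries, *Smad2* was above *Smad3* and *Smad3* above *Smad4* in 6 of 6. All other neighbours in the order had ranges that did not overlap. Overlapping genes limit how finely levels can be read, since reads of *Tgfbr1*, *Tgfbr2*, *Tgfb2*, *Smad3* and *Smad7* cannot be told from those of noncoding genes that overlap them in RefSeq when strand is not marked.

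**Figure D1:**
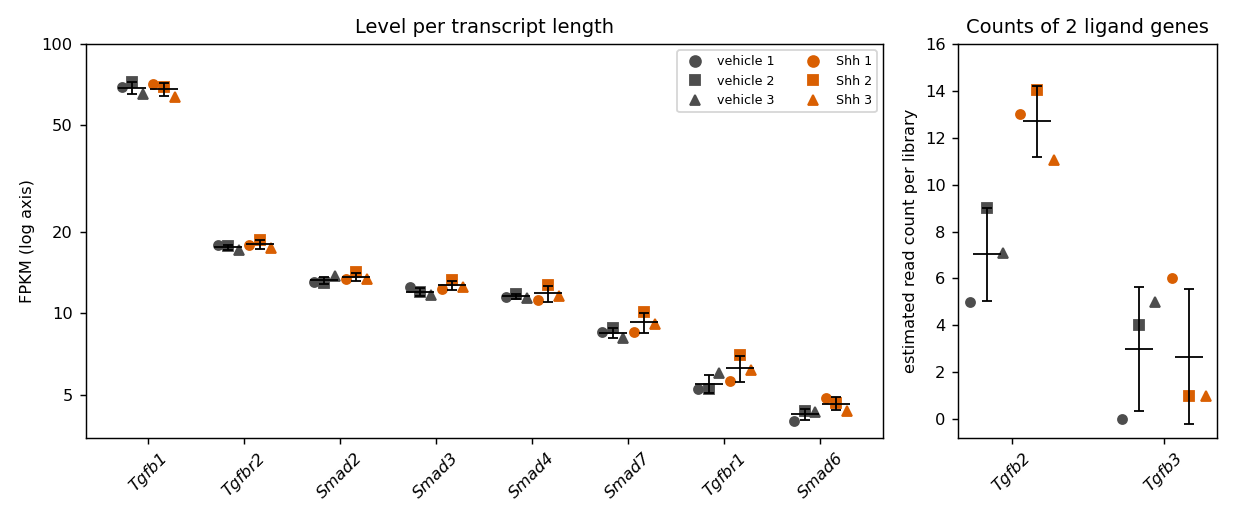
Left, FPKM of the 8 well measured genes on a log axis; right, estimated read counts of *Tgfb2* and *Tgfb3*. Each symbol is 1 library (grey, vehicle; orange, Shh), horizontal lines are group means and bars are SD (n = 3). *Tgfb1* lies near 68.4 FPKM and *Smad6* near 4.42 FPKM, while no library holds more than 14.04 counts of *Tgfb2* or 6 of *Tgfb3*.

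The start regions of *Tgfb1* and *Tgfb2*, the highest and the lowest by FPKM of the members searched, are shown for context. That of *Smad6* is shown as the region with a Smad motif among the members searched. They are 300 bases each from RefSeq on GRCm38.p6, 250 bases before and 50 after the annotated start, read 5′ to 3′ on the gene's own strand. Entries were matched by symbol and searched for 6 of the 10 members. *Tgfb3*, *Smad2*, *Smad4* and *Smad7* were not searched, so whether their regions hold a Smad motif was not examined. *Tgfb1* is at chr7:25686752-25687051 on the plus strand, *Tgfb2* at chr1:186705940-186706239 on the minus strand and *Smad6* at chr9:64022010-64022309 on the minus strand. Lower case marks bases outside a motif and capitals mark matches to 1 of 4 motifs searched on both strands, the palindromic Smad motif GTCTAGAC, the E-box CACGTG, the Gli motif GACCACCCA and the TATA motif TATAAA.
Tgfb1: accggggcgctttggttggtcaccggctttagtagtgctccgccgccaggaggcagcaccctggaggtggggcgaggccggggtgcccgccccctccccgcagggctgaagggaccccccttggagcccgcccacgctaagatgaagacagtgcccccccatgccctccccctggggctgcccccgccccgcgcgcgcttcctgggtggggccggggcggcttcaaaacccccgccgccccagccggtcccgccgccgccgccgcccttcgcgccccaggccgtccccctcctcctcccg
Tgfb2: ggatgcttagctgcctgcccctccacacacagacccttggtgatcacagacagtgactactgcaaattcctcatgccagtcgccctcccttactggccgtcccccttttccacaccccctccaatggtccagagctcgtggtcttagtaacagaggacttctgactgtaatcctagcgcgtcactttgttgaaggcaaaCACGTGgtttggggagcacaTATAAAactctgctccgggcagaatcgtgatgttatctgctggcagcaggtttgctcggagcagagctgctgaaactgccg
Smad6: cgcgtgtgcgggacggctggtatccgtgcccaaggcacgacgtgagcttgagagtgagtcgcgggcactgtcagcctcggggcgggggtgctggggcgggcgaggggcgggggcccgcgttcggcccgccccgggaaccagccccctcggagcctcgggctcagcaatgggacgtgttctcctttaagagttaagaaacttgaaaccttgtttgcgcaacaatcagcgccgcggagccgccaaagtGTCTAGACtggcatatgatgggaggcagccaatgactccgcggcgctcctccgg

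The start region of *Tgfb1* was 77.0% G and C with 30 CpG pairs, against medians of 52.7% and 7 over 32851 RefSeq regions of the same length, and held none of the 4 motifs. That of *Tgfb2* was 54.3% G and C with 10 CpG pairs. It held the E-box at positions -51 to -46 and the TATA motif at -31 to -26 from the start, letters present in 7.15% and 13.6% of all regions. The region of *Smad6*, 66.3% G and C with 31 CpG pairs, held the Smad motif across the start, from -4 to 4 with no position 0, letters found in 0.213% of all regions. The Gli motif, present in 0.253% of all regions, was not in these windows. Such matches are descriptions of the sequence, and binding was not measured.

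No member was called different between Shh and vehicle. At an adjusted p under 0.05, edgeR's quasi-likelihood test called 0 of the 9 members tested, against a background of 0% of the 12286 genes tested, and DESeq2 also called 0. At an unadjusted p under 0.05 the count was 0 of 9 by each tool, where edgeR had 4.83% of all genes on the higher side and 5.56% on the lower side. Among the 8 well measured members, all except *Tgfb2* and *Tgfb3*, 7 had a log2 fold change above 0 and 1 below. Over all genes tested 51.2% were above 0. The median was 0.032 for the 8 members, against 0.0028 over all genes tested. In 0 of these 8 did every Shh library lie above every vehicle library, as in 6.79% of all genes, or below every vehicle library, as in 8.67%. All log2 fold changes are Shh against vehicle, and CPM, counts scaled to the library total by TMM, are used within a gene.

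The ligand gene *Tgfb1* (NCBI gene 21803) was measured at 149, 155 and 139 CPM in vehicle libraries 1 to 3 and at 151, 144 and 135 CPM in Shh libraries 1 to 3. The groups overlapped, with means of 148 ± 7.90 and 143 ± 8.49 CPM (SD, n = 3). Its log2 fold change was -0.042 with a standard error of 0.053 (adjusted p = 0.795 from edgeR). The 95% interval of the fold ran from 0.897 to 1.05.

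*Tgfb2* (NCBI gene 21808), whose product signals with the help of a co-receptor, had estimated counts of 5, 9 and 7.07 with vehicle and of 13.01, 14.04 and 11.07 with Shh. The groups did not overlap, with all Shh counts above all vehicle counts. *Tgfb2* passed the expression filter through the Shh libraries alone, so that a difference was a condition of being tested, and the separation supports nothing further. On the CPM scale the means were 0.348 ± 0.0994 and 0.619 ± 0.0706 (SD, n = 3), a fold of 1.77 with a 95% interval of 0.999 to 3.12 (adjusted p = 0.479 from edgeR). *Tgfb3* (NCBI gene 21809), the third ligand gene, had counts of 0, 4 and 5 with vehicle and of 6, 1 and 1 with Shh, where a count of 0 allows up to 3 counts. It did not pass the filter. Its highest count came from Shh library 1. That library also had the highest levels of most stellate cell and macrophage marker genes, though the lowest of *Dcn*, described further on.

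Of the receptor genes, *Tgfbr2* varied less between libraries than *Tgfbr1*, with coefficients of variation of 2.44% and 7.66% among vehicle and 2.70% and 9.46% among Shh libraries. *Tgfbr2* (NCBI gene 21813) was measured at 85.0, 84.2 and 81.2 CPM with vehicle and at 84.3, 85.9 and 81.4 CPM with Shh. Its groups overlapped almost fully, and the 95% interval of the fold was 0.940 to 1.07. *Tgfbr1* (NCBI gene 21812) was measured at 30.2, 29.9 and 34.2 CPM with vehicle and at 32.0, 38.6 and 34.8 CPM with Shh. Only vehicle library 3 and Shh library 1 kept its groups from separating. The means were 31.5 ± 2.41 and 35.1 ± 3.32 CPM (SD, n = 3), a log2 fold change of 0.16 with a standard error of 0.076 (adjusted p = 0.485 from edgeR), the largest among the 8 well measured members in this fit. That of *Tgfbr1* was 0.085 without Shh library 2, 0.093 with an offset for transcript length and 0.053 with both. It was 0.22 without Shh library 1 (adjusted p = 0.0972 from edgeR).

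Among the signalling Smads the differences with all 6 libraries and no offset were at most 0.047 on the log2 scale. *Smad2* (NCBI gene 17126), a receptor substrate, was measured at 116, 115 and 121 CPM with vehicle and at 118, 121 and 117 CPM with Shh. *Smad3* (NCBI gene 17127), the receptor substrate that binds DNA directly, was measured at 63.7, 61.0 and 59.2 CPM with vehicle and at 62.6, 65.3 and 62.1 CPM with Shh. *Smad4* (NCBI gene 17128), the partner of both and also of the BMP Smads, was measured at 87.9, 90.4 and 86.5 CPM with vehicle and at 85.1, 94.2 and 87.1 CPM with Shh. The groups overlapped for all 3, and for *Smad4* the Shh libraries held both the lowest and the highest value. Their log2 fold changes were 0.016, 0.047 and 0.0093, with standard errors of 0.041, 0.048 and 0.049 (adjusted p = 0.906, 0.732 and 0.957 from edgeR). The 95% intervals of the fold were 0.951 to 1.08 for *Smad2*, 0.962 to 1.11 for *Smad3* and 0.935 to 1.08 for *Smad4*. With the length offset, *Smad2*, *Smad3* and *Smad4* were at -0.068, -0.010 and -0.071, and leaving out 1 library put *Smad3* between 0.024 (without vehicle library 3 or Shh library 2) and 0.075 (without vehicle library 1).

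The inhibitory Smad genes had the next largest differences after *Tgfbr1*. *Smad7* (NCBI gene 17131) was measured at 32.6, 33.8 and 31.6 CPM with vehicle and at 33.0, 38.5 and 34.1 CPM with Shh. Shh library 2 was the highest, and vehicle library 2 lay above Shh library 1. Its log2 fold change was 0.11 with a standard error of 0.065 (adjusted p = 0.550 from edgeR), against 0.039 without Shh library 2 and 0.15 without Shh library 1 (adjusted p = 0.186 from edgeR). *Smad6* (NCBI gene 17130) was measured at 11.3, 12.4 and 12.1 CPM with vehicle and at 14.1, 12.8 and 12.2 CPM with Shh. Here Shh library 1 was the highest, and vehicle library 2 lay above Shh library 3. Its log2 fold change was 0.12 with a standard error of 0.080 (adjusted p = 0.576 from edgeR), against 0.066 without Shh library 1. *Smad6* was at 0.12 with the length offset, 0.14 without Shh library 2 and 0.13 with both, each above *Tgfbr1* in the same fit. The 95% intervals of the fold were 0.978 to 1.19 for *Smad7* and 0.966 to 1.23 for *Smad6*.

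Ratios of FPKM within a library gave the balance between members. The type II to type I receptor ratio, *Tgfbr2* to *Tgfbr1*, was 3.23 ± 0.308 with vehicle and 2.91 ± 0.263 with Shh. The ratio of *Smad2* to *Smad3* was 1.10 ± 0.0651 and 1.08 ± 0.00687, and that of the inhibitors *Smad7* to *Smad6* was 2.01 ± 0.133 and 2.01 ± 0.225. *Tgfb1* to *Tgfbr2*, the ligand against the receptor that binds it, was 3.90 ± 0.144 and 3.77 ± 0.171 (all SD, n = 3). The exact two-sided permutation p was 0.2, 0.7, 1 and 0.4 in that order, with adjusted values over the 4 ratios of 0.8, 0.933, 1 and 0.8. With 3 libraries against 3 this test cannot go below 0.1, so it could not have passed 0.05.

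Single libraries stood out among the members. Shh library 2 was the highest of all 6 libraries for 6 of the 8 well measured members, *Tgfbr1*, *Tgfbr2*, *Smad2*, *Smad3*, *Smad4* and *Smad7*. Vehicle library 2 was the highest for *Tgfb1* and Shh library 1 for *Smad6*. The median of the 8 members relative to the vehicle mean was 0.093 on the log2 scale in Shh library 2, but 0.020 and 0.0060 in Shh libraries 1 and 3. In vehicle libraries it ranged from -0.035 to 0.024. The coefficient of variation of *Smad7* was 3.40% among vehicle and 8.32% among Shh libraries, and that of *Smad4* was 2.27% and 5.40%. *Smad2* went the other way, with 2.43% among vehicle and 1.94% among Shh libraries.

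**Figure D2:**
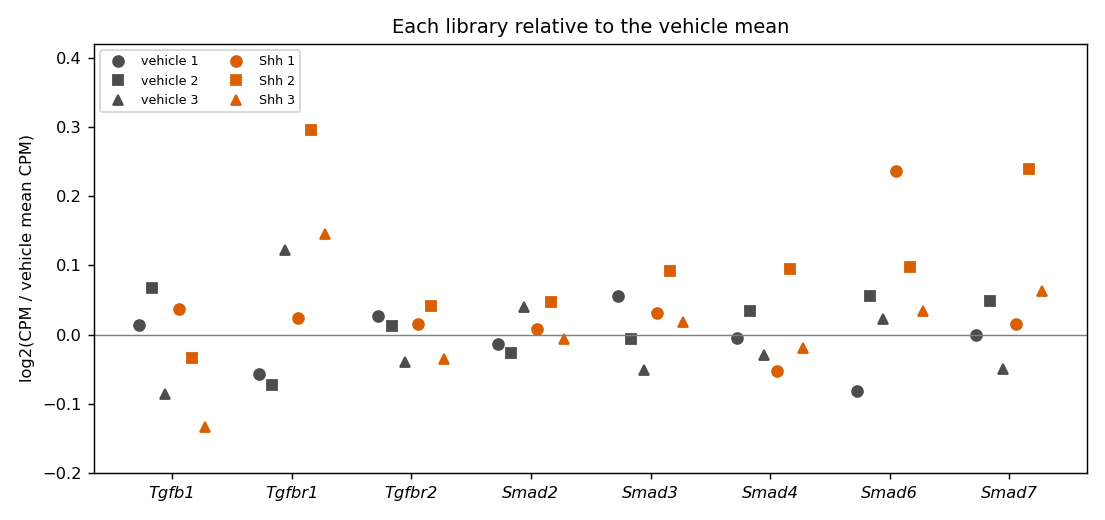
Each symbol is 1 library, placed at the log2 ratio of its CPM to the mean CPM of the vehicle libraries, for the 8 well measured genes (grey, vehicle; orange, Shh). The square of Shh library 2 is the top symbol for 6 genes, the largest being 0.30 for *Tgfbr1* and 0.24 for *Smad7*, while the circle of Shh library 1 is the top symbol for *Smad6* at 0.24.

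The signs of some members changed in other fits. The 8 members had a median transcript length of 4860 bases, against 2689 over the 11471 tested genes with a length, and only *Tgfb1*, at 2126 bases, was shorter than that. With an offset that removed each library's trend with length, 3 of the 8 members were above 0 and 5 below, with a median of -0.019 against -0.0036 over all genes with a length. Without Shh library 2, 5 were above and 3 below, with a median of 0.012. Without Shh library 1, 7 were above and 1 below, with a median of 0.047. *Tgfbr1*, *Smad6* and *Smad7* were above 0 and *Tgfb1* below 0 in each of these fits. *Tgfbr2*, *Smad2*, *Smad3* and *Smad4* lay below 0 with the offset, and *Tgfbr2* and *Smad4* also without Shh library 2.

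**Figure D3:**
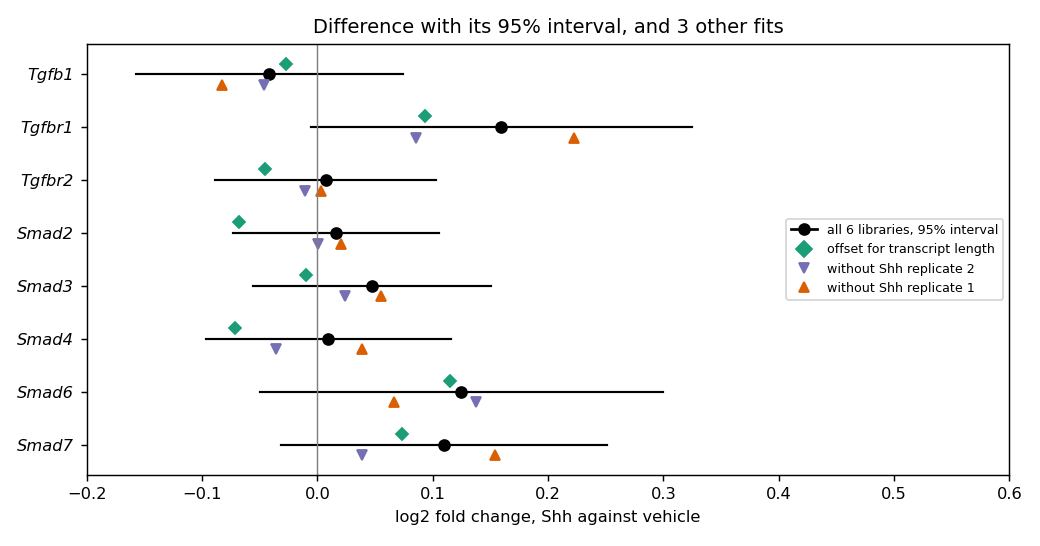
Log2 fold change of Shh against vehicle for the 8 well measured genes, with 95% intervals from edgeR on all 6 libraries (black), and the values with a transcript length offset (diamonds), without Shh library 2 (downward triangles) and without Shh library 1 (upward triangles). Every black interval crosses 0, and the diamonds of *Tgfbr2*, *Smad2*, *Smad3* and *Smad4* lie below 0 where the black points lie above it.

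The labelled cell line and treatment were checked on genes outside the pathway. Of 15 hepatocyte and hepatoma markers 12 were at 1 FPKM or more, with *Alb* at 967 to 1022 CPM and *Afp* at 378 to 401 CPM, while *Ttr* (0.198 to 0.594 CPM), *Apoh* and *Serpina1a* were near 0. The list summed to 6049, 6063 and 6013 CPM with vehicle and to 6010, 5668 and 5846 CPM with Shh. Every Shh library was lower, though Shh library 1 and vehicle library 3 were nearly equal. Of its 12 tested genes 9 were below 0 in log2 fold change. Every Shh library lay below every vehicle library in 2 and above in 1, against 8.67% and 6.79% of all genes. The list median was -0.043, and -0.014 with the length offset. The part of these differences in the members' values was not tested. The Hedgehog targets *Gli1* and *Ptch1* had log2 fold changes of 0.036 and 0.030 (adjusted p = 0.955 and 0.891 from edgeR), and *Hhip* had at most 0.149 CPM, so no response to Shh was detected in these genes. Of 12 stellate cell and fibroblast markers 5 were at 1 FPKM or more, mostly *Dcn* at 902 to 979 CPM. *Dcn* was lowest in Shh library 1. With *Dcn* these markers summed to 955 to 994 CPM with vehicle and 973 to 1004 CPM with Shh. Without *Dcn* their summed level was 29.6, 47.0 and 39.7 CPM with vehicle and 70.9, 25.1 and 24.4 CPM with Shh, and 8 of the 11 were highest in Shh library 1. Of 9 macrophage markers measured, 3 were at 1 FPKM or more, the list summed to 53.8 to 54.9 CPM with vehicle and 47.0 to 59.4 CPM with Shh, and 8 were highest in Shh library 1. The macrophage marker *Adgre1* (F4/80) was at 0.445 CPM there and at 0.048 to 0.148 CPM elsewhere, and *Ptprc*, which marks all leukocytes, at 1.39 and 0.147 to 0.396 CPM. *Smad6* and *Tgfb3* had their highest values in that same library, and the part of these markers in them was not tested. In the other lists, 6 of 15 hepatocyte, 4 of 8 endothelium and 0 of 5 cholangiocyte markers were highest in Shh library 1. The share of all genes highest there is not given. Of 5 cholangiocyte markers 4 were at 1 FPKM or more, mostly *Krt7* at 148 to 156 CPM. They summed to 238 to 246 CPM with vehicle and 237 to 247 CPM with Shh. Of 8 liver endothelium markers 1 was at 1 FPKM or more, with sums of 13.4 to 14.7 and 13.3 to 14.9 CPM. In RNA of whole cultures, more cells of a type and more RNA per cell cannot be told apart.

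Around the members, 126 further gene symbols of the pathway in 6 lists were examined. *Ctgf* and *Cyr61* among them are older symbols of *Ccn2* and *Ccn1*, which were listed as well. Of the 126 symbols, 122 were in the table and 105 were tested. By edgeR 0 were called at an adjusted p under 0.05, and 0 by DESeq2. At an unadjusted p under 0.05 edgeR had 7 on the higher side (6.67%) and 6 on the lower side (5.71%), near the 4.83% and 5.56% of all genes, and DESeq2 had 12 in all. Of the 105 tested, 59 were above 0 and 46 below, where 51.2% of all genes tested were above 0. The median log2 fold change of the 105 was 0.012. Without Shh library 1, edgeR called 5 of them, against 1.57% of the 12391 genes tested in that fit, and they are named after that count was seen. They were the smooth muscle genes *Tagln* (-1.25, adjusted p = 0.0462) and *Acta2* (-0.85, adjusted p = 0.0462), the chaperone-linked ubiquitin ligase gene *Stub1* (-0.19, adjusted p = 0.0481), the integrin subunit gene *Itgav* (0.21, adjusted p = 0.0481) and the deubiquitinase gene *Usp15* (0.20, adjusted p = 0.0495). *Acta2* was at 4.94, 7.37 and 6.73 CPM with vehicle and 9.36, 3.66 and 3.39 CPM with Shh, so the library left out held its highest value.

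Genes that store and release latent TGF-β had 9 of 14 tested members above 0, with a median of 0.036, and none passed even the unadjusted threshold in edgeR. The 3 with the smallest p were *Itgav*, part of integrins that release TGF-β (0.13, standard error 0.063), the protease gene *Furin*, which cleaves the ligand precursor (0.10), and the latent binding protein gene *Ltbp4* (-0.13). *Itgav* was at 130, 131 and 133 CPM with vehicle and 128, 158 and 146 CPM with Shh, so its Shh libraries spread over both sides of the vehicle group. *Itgav* was at 0.052 and *Furin* at 0.054 with the length offset, and at 0.058 and 0.041 without Shh library 2. For the 11 genes with a length the median was 0.00051, and -0.015 with the offset.

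Among co-receptors, decoys and adaptors 7 of 11 tested members were above 0, with a median of 0.0065. The smallest p belonged to *Fkbp1a*, whose product binds and quiets the type I receptor (-0.076), the decoy co-receptor gene *Cd109* (0.13) and *Zfyve9*, the adaptor that presents Smad2 and Smad3 (0.084), none of them at an unadjusted p under 0.05. *Zfyve9* was at -0.027 without Shh library 2 and at 0.19 without Shh library 1, and the length offset gave -0.035 for *Fkbp1a*, 0.060 for *Cd109* and 0.029 for *Zfyve9*. The co-receptor genes *Tgfbr3* and *Eng*, named after their values were seen, were at 0.317 and 0.632 FPKM on average, far below *Fkbp1a* at 351 FPKM.

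The Smad partners, co-repressors, ligases and phosphatases had 15 of 21 tested members above 0 and a median of 0.073, the highest of the 6 lists. In edgeR 5 of the 21 were at an unadjusted p under 0.05 on the higher side and 2 on the lower side, where all genes had 4.83% and 5.56%, and none was called. *Stub1*, whose product marks Smad3 for degradation, was at 133, 133 and 132 CPM with vehicle and 122, 116 and 116 CPM with Shh, a log2 fold change of -0.16 (adjusted p = 0.469 from edgeR, standard error 0.040). The co-repressor gene *Tgif1* was at 92.0, 92.3 and 90.4 CPM with vehicle and 85.4, 84.8 and 83.2 CPM with Shh, a difference of -0.12 (standard error 0.041). In both genes every Shh library was below every vehicle library, as in 8.67% of all genes. Both were chosen by small p from these same values, so the separation adds no support. In this list 2 genes were separated on the lower side and 3 on the higher side. The length offset gave -0.094 for *Stub1* and -0.069 for *Tgif1*. *Rnf111*, encoding a ligase that removes Smad7 and co-repressors, was at 0.26 with all libraries and at 0.14 without Shh library 2. Over the 20 genes with a length the median was 0.065, and 0.022 with the offset, at a median transcript length of 5280 bases.

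In the BMP and activin branch 9 of 15 tested members were above 0, with a median of 0.023. *Acvrl1*, an endothelial type I receptor gene, was at 1.65, 1.74 and 1.38 CPM with vehicle and 0.891, 1.16 and 0.638 CPM with Shh, a log2 fold change of -0.82 (adjusted p = 0.469 from edgeR, standard error 0.27) on few counts. *Smad5*, a BMP receptor substrate, was at 33.3, 36.1 and 35.8 CPM with vehicle and 37.6, 39.6 and 37.1 CPM with Shh, a difference of 0.12, and 0.069 with the length offset. Its groups did not overlap, with every Shh library higher, as in 6.79% of all genes. *Gdf15*, a secreted stress factor of the TGF-β superfamily, was at -0.12, and at -0.061 with the length offset.

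The non-Smad arm, kinases and small GTPase signalling downstream of the receptors, had 10 of 16 tested members above 0 and a median of 0.021. Its smallest p belonged to the ERK1 gene *Mapk3* at -0.10 (standard error 0.043), or -0.066 with the length offset, and the p38-activating kinase gene *Map2k3* at -0.093. Of the target genes of TGF-β and BMP, 9 of 28 tested were above 0 with a median of -0.024. Over the 27 with a length the median was -0.029, and -0.0031 with the offset. *Ccn2*, encoding a matricellular growth factor, was at 1074, 1068 and 1006 CPM with vehicle and 1013, 948 and 976 CPM with Shh, a difference of -0.099 (standard error 0.043) with overlapping groups. *Junb*, an AP-1 subunit gene, was at -0.10 and *Zeb1*, a repressor of epithelial genes, at 0.18, or 0.12 with the length offset.

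**Figure D4:**
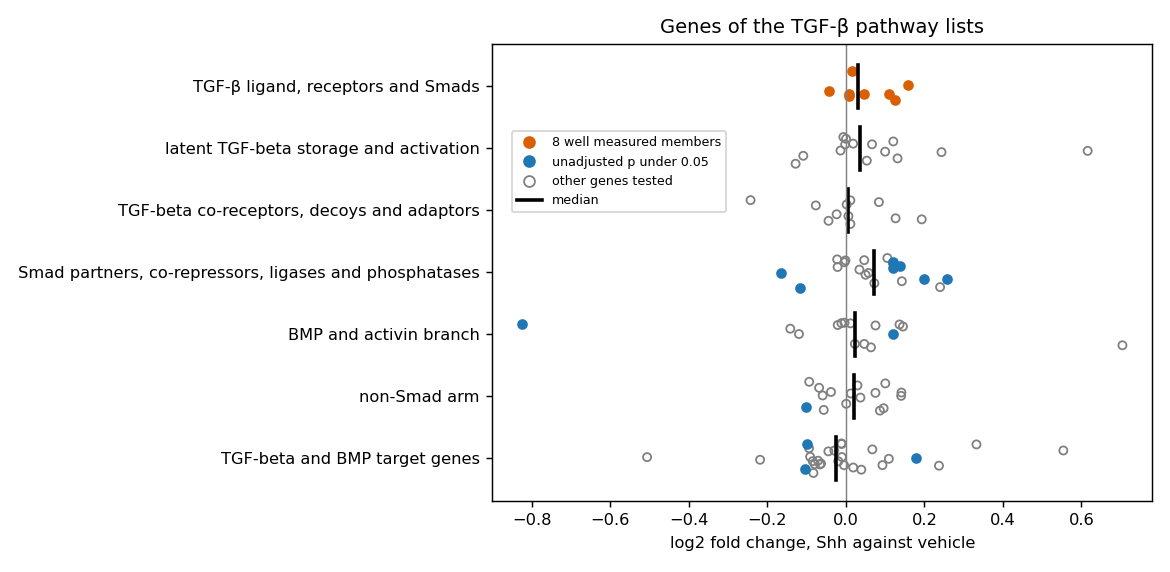
Log2 fold change of Shh against vehicle for every tested gene of the 6 pathway lists and, at the top, the 8 well measured members in orange. Blue points have an unadjusted p under 0.05 in edgeR, open points do not, and black lines are medians, which run from -0.024 for target genes to 0.073 for Smad partners.

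The genes whose pattern over the 6 libraries was most like that of the member with the highest FPKM among the ligands, the receptors, the signalling Smads (*Smad2*, *Smad3* and *Smad4*) and the inhibitory Smads were found by the root mean square difference in centred log2 CPM over 9432 genes of 5 CPM or more. For *Tgfb1* they were *Rpp25l* (0.016) and *Cyb561* (0.020), for *Tgfbr2* *Gaa* (0.0081) and *Mavs* (0.0087), for *Smad2* *Spast* (0.0093) and *Snrnp200* (0.0098), and for *Smad7* *Scaf8* (0.011) and *Gata4* (0.015). The members' own spread on that scale was 0.070 for *Tgfb1*, 0.031 for *Tgfbr2*, 0.027 for *Smad2* and 0.091 for *Smad7*. With 6 libraries and this many genes such close patterns are a description.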

How the data were processed

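Single-end reads of poly(A) RNA from Hepa 1–6 cells (3 Shh and 3 vehicle libraries) were processed by the authors into 1 table. Its deposited read counts are estimated counts, since 36.4% of those above 0 are fractional. The deposited FPKM served for levels between genes and, where at least 0.5, for recovering transcript length. The deposited TPM, 6 per-sample columns, were not used. Columns headed control were read as the labels' vehicle. Liver exosomes appear in the design text of the series but the labels name the cell line, which was followed. The submitters' notes name Bowtie2. For its version, the counting tool, genome build and annotation, each is not given in the sources used here.

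Rounded counts went into edgeR 4.0.16 under R 4.3.3, with TMM scaling, the built-in expression filter (minimum count 10, minimum total 15) and a quasi-likelihood test on group alone. Adjusted p-values follow Benjamini-Hochberg over all genes tested, at 0.05. Intervals are 95% intervals of that fit. Ratios were compared by exact permutation over libraries. The members, gene lists and markers were chosen with earlier results of these data known. Named genes were all members, up to 3 genes of smallest p in each pathway list, the 2 nearest patterns per role, and check genes, with additions marked in the text. Some genes that this choice takes are left out of the text. Alternatives were DESeq2 1.42.0, its size factors, no filter, a minimum of 5 CPM in 3 libraries, a replicate block, a length offset (per library, a spline of 5 degrees of freedom through log2 CPM with prior count 2), block plus offset, and leaving out each library. A length offset without Shh library 2 was added after seeing the data. The edgeR step was tested on simulated data. Start regions came from RefSeq on GRCm38.p6.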

Additional observations from a re-analysis of the deposited data

How the results depend on the processing

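No member was called by edgeR under any of the alternatives run, and DESeq2 called 0. At an unadjusted p under 0.05 in edgeR there was none in the fit reported, but *Tgfb2* passed with DESeq2's size factors and without vehicle library 2, and *Tgfbr1* with at least 5 CPM in 3 libraries, without vehicle library 3 and, together with *Smad7*, without Shh library 1. Of 122 alternative values of single members, 105 kept their direction and side of the threshold and 17 changed sign, none of them past it. *Tgfbr1*, *Smad6* and *Smad7* kept their sign in all of theirs, over 0.053 to 0.23, 0.066 to 0.17 and 0.019 to 0.15 (adjusted p from 0.0972, 0.504 and 0.186 upward in edgeR and DESeq2). *Tgfb2* ranged from 0.63 to 1.04 (adjusted p from 0.336 upward in edgeR and DESeq2). Its sign was fixed by how it passed the filter, except in the fit with no filter, which gave 0.82. Sign changes by the length offset were to -0.0452 for *Tgfbr2*, -0.0683 for *Smad2*, -0.0102 for *Smad3* and -0.0715 for *Smad4*. With the replicate block and the length offset they were -0.0451, -0.0684, -0.00974 and -0.0716 in the same order, and with the length offset and without Shh library 2 they were -0.0369, -0.0452, -0.00439 and -0.0776. Leaving out vehicle library 3 gave -0.0112 for *Tgfbr2* and -0.00395 for *Smad4*, leaving out Shh library 2 gave -0.0106 and -0.0359, and leaving out Shh library 3 gave 0.0016 for *Tgfb1*. Leaving out 1 library in turn spanned -0.083 to 0.0016 for *Tgfb1*, -0.011 to 0.028 for *Tgfbr2* and -0.036 to 0.039 for *Smad4*. Deviations of same-numbered libraries correlated at -0.040, -0.054 and 0.098, which gave no sign of a pairing by replicate number. With the replicate block 0 genes were called, as without it, so that count cannot settle pairing. Over all genes, 0 were called, against 1 with no filter, 1 with the length offset, 5 with the replicate block and the length offset, 2 with the length offset and without Shh library 2, and 1277 at an unadjusted p under 0.05. Leaving out 1 library gave 0 to 195 calls over all genes, with 195 without Shh library 1, 3 without Shh library 2, 1 without Shh library 3 and 2 without vehicle library 3. For the pathway lists, 13 genes were at an unadjusted p under 0.05 and leaving out 1 library gave 0 to 5 calls, the 5 without Shh library 1. The cause of these changes was not tested. With about 5 to 14 counts of *Tgfb2* and 0 to 6 of *Tgfb3* per library, depth limited both genes.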
